A study of Homo sapiens with 4 samples.

Results

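The 10 genes described are the 5 subunits of the transcription factor NF-κB (NFKB1, NFKB2, RELA, RELB and REL), 4 inhibitor and feedback genes of the pathway (NFKBIA, NFKBIZ, TNFAIP3 and BIRC3) and MIR3142HG, the host gene of the microRNA miR-146a. They were taken by name from 56655 gene symbols, with earlier results of these libraries in view, so their differences between groups are a description: no p-value is given for any of them, and the number past the threshold of the fit over all genes is printed only beside the share of all genes that passed it. All 10 were among the 16417 genes that passed the filter on low counts. Both groups were OVCAR5 cells, an established human ovarian cancer line labelled high grade serous and derived from ascites, at passage 4-6. The shCtrl group (n = 2 libraries) carried a stable lentiviral control hairpin that targets no human transcript, and the shFOXK2 group (n = 2 libraries) carried a hairpin against the forkhead transcription factor gene FOXK2. The study used puromycin to select transduced cells, and its figure legends tie the sequencing to a single FOXK2 hairpin, so an effect of that hairpin and an effect of losing FOXK2 cannot be told apart. The libraries are biological duplicates by the study's account, and p-values measure only the spread between them.

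NF-κB acts as dimers of its subunits. RELA, RELB and REL carry a transactivation domain, whereas NFKB1 and NFKB2 are made as the long precursors p105 and p100, which are processed to p50 and p52. In resting cells IκB proteins such as IκBα, the product of NFKBIA, hold the dimers in the cytoplasm until the IκB kinase complex marks them for destruction. Freed dimers bind κB sites and switch on chemokine and survival genes together with genes that end the signal, among them NFKBIA, TNFAIP3 and the host gene of miR-146a.

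The κB sites near the start of these genes are shown first. The rule for choosing genes used names and not sequence. Yet the names are those of the NF-κB pathway, and several of these genes are known to be switched on through κB sites. The share with a match is therefore tied to the choice of genes and is a description only. Promoter windows of RefSeq (GRCh38.p14, 250 bases before to 50 after each start, some genes with several starts) were searched on both strands for the κB consensus, and the match nearest to a start is printed in capitals, read along the gene's strand.
NFKB1, chr4:102501295-102501334, plus strand: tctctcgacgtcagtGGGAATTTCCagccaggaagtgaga
NFKB2, chr10:102395669-102395708, plus strand: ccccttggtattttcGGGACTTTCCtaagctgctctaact
REL, chr2:60881512-60881552, plus strand: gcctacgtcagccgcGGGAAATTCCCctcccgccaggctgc
NFKBIA, chr14:35404806-35404845, minus strand: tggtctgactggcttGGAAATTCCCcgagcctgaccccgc
NFKBIZ, chr3:101827752-101827791, plus strand: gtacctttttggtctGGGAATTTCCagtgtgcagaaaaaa
TNFAIP3, chr6:137867177-137867228, plus strand: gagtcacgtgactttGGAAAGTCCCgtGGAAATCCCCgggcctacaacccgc
BIRC3, chr11:102317334-102317373, plus strand: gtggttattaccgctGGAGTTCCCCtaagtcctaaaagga
MIR3142HG, chr5:160468116-160468155, plus strand: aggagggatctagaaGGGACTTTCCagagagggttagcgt

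Of the 9 genes with a window, 8 (88.9%) held a match, against 5.91% of all 35116 windows and 7.09% of the 27305 genes with a window. RELA's windows held none, and RELB had no entry. The starts of the windows printed for NFKBIZ and MIR3142HG are not in the transcript used below for gene length. That of MIR3142HG lies inside the gene span given below, not at its edge. The matches of NFKBIA, TNFAIP3 and BIRC3 lie on the strand opposite to the gene, and that of REL reads as a match on both strands. TNFAIP3 held a pair of matches, 55 and 67 bases before its start, and the match of NFKBIA began 81 bases before its start. The same consensus was found in 17 of 31 genes (54.8%) of a list of transcriptional targets of NF-κB, in 6 of 18 (33.3%) of the other IκB proteins and negative regulators, and in 1 of 21 (4.76%) of the IκB kinase and upstream genes. The forkhead letters TGTTTAC, on either strand, were in 0 of the 9 genes and in 3.42% of all windows, and TAAACA was in NFKB2 alone of the 9 and in 12.3% of all windows. A match is a stretch of letters and not a measured site, and the absence of one from these windows says nothing of binding elsewhere.

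The microRNAs of MIR3142HG are shown with the seed, bases 2 to 8, in capitals, together with miR-146b-5p, which has the same seed and comes from another chromosome (mature sequences from RefSeq, GRCh38.p14).
hsa-miR-146a-5p, chr5:160485372-160485393, plus strand: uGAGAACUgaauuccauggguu
hsa-miR-146a-3p, chr5:160485408-160485429, plus strand: cCUCUGAAauucaguucuucag
hsa-miR-3142, chr5:160474492-160474513, plus strand: aAGGCCUUucugaaccuucaga
hsa-miR-146b-5p, chr10:102436520-102436542, plus strand: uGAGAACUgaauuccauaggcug

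The 5p arms of miR-146a and miR-146b had the same base at 20 of 22 positions and differed by G18A and U21C, counted from 1 at the 5′ end with the base of miR-146a first. Both lie outside the seed. miR-146a dampens NF-κB signalling by pairing with the transcripts of the adaptor proteins IRAK1 and TRAF6. Mature microRNAs carry no poly(A) tail, and the rows of MIR146A, MIR3142 and MIR146B held 0 counts in all 4 libraries. What was measured is therefore the host transcript, not miR-146a.

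Library totals ran from 14284005 to 21950873 counts, and a floor of 3 counts in a library corresponded to between 0.135 and 0.211 CPM (counts scaled to a common library total, with TMM factors). Such floors, and the intervals below, cover counting error alone. FOXK2 itself stood at 80.5 and 93.4 CPM in the shCtrl libraries and at 76.3 and 59.6 CPM in those labelled shFOXK2, a log2 fold change of -0.36 (SE 0.25) with an adjusted p of 0.257 in edgeR's quasi-likelihood test over all genes. The targeted transcript was thus lower in both libraries but did not pass the test, and in these counts every direction below rests on the labels. The study reports lower FOXK2 in shFOXK2 OVCAR5 cells by qRT-PCR and western blot, which are measurements apart from these counts. FOXK2 overlaps WDR45B on the opposite strand (2627 and 2147 counts in shCtrl, 1259 and 1448 in shFOXK2). The strand setting is not given, so reads in shared exons could have been lost. Of 16417 genes tested, 7940 (48.4%) had an adjusted p under 0.05, 22.7% lower and 25.7% higher in shFOXK2, and the median log2 fold change of all genes was 0.04. With 2 libraries against 2, a permutation of labels cannot reach 0.05. The epithelial keratins KRT8 and KRT18 were abundant in every library, and 9 epithelial and ovarian markers summed to 4108 and 5474 CPM in shCtrl and to 4093 and 5307 CPM in shFOXK2, with WT1 under 1 CPM throughout. The keratins carried that sum, and 3 of the 9 markers fell by edgeR's test: CDH1 (E-cadherin) from 459 and 260 counts to 13 and 24 (log2 fold change -4.02, adjusted p = 5.12e-06), MUC16 (CA125) from 397 and 145 counts to 0 and 8 (adjusted p = 2.45e-05) and PAX8 (log2 fold change -0.88, adjusted p = 0.0263). Of 13 leukocyte, fibroblast and endothelial markers 8 were under 1 CPM in all libraries, among them PTPRC and CD3E, and their sum was 50.6 and 51.8 CPM in shCtrl and 26.01 and 25.6 CPM in shFOXK2. Of the markers above 1 CPM, CD14 (log2 fold change -1.14, adjusted p = 0.00566), ITGAM (-3.35, adjusted p = 0.000205) and PECAM1 (-2.45, adjusted p = 0.000536) fell by edgeR's test, CDH5 went from 76 and 33 counts to 0 in both, and COL1A1 had a log2 fold change of 0.03 (adjusted p = 0.951). The part of these marker differences in the results was not tested. In bulk RNA, fewer cells of a type and less RNA per cell cannot be told apart.

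Of the subunits, NFKB1, NFKB2, RELA and RELB were lower in both shFOXK2 libraries than in either shCtrl library, at 22.3% to 48.1% of the control mean, and REL was not. The inhibitor and feedback genes were lower still, at 6.98% to 20.8% of the control mean, and MIR3142HG was all but absent from shFOXK2. RELB (22.3%) and NFKBIZ (20.8%) were close, and their order changed when some libraries were left out. The median log2 fold change was -1.14 for the 5 subunits (range -2.17 to 0.10) and -2.58 for the 4 inhibitor and feedback genes (range -3.85 to -2.26). Of the 10 genes, 9 had an adjusted p under 0.05 and were lower, where 22.7% of all genes tested did so, and the same 9 had groups that did not overlap, where 75.4% of all genes tested did not overlap, 36.2% lower and 39.2% higher. Since the genes were chosen on this contrast, these shares are not evidence about the pathway.

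**Figure D1:**
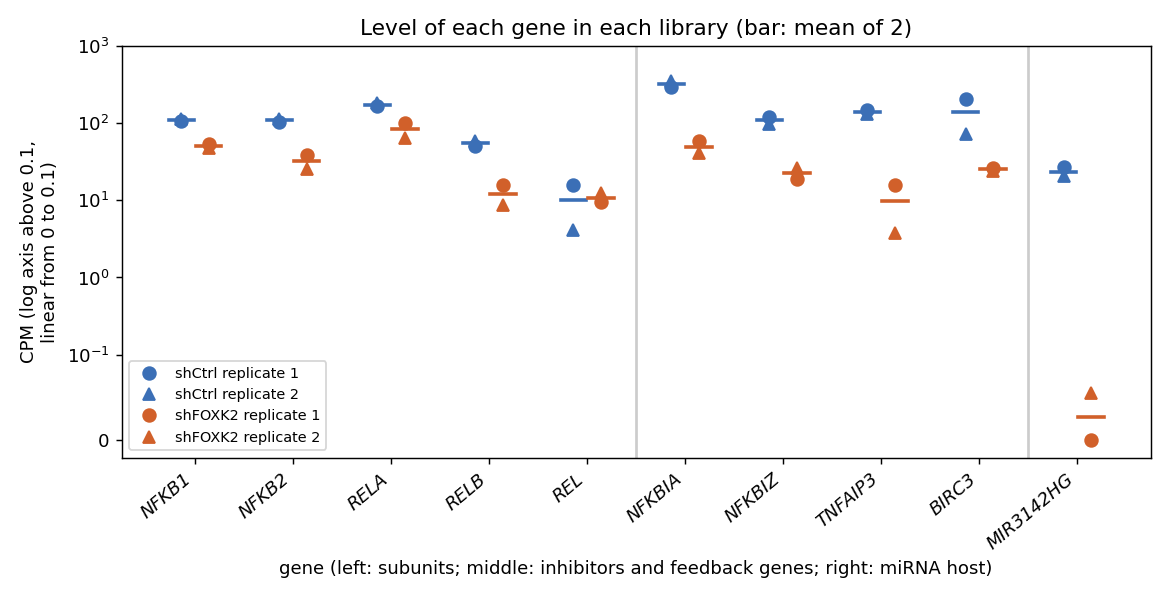
Level of each of the 10 genes in each library in CPM (log axis above 0.1, linear from 0 to 0.1), with shCtrl in blue and shFOXK2 in orange, circles for replicate 1, triangles for replicate 2 and a short bar for the mean of 2. The groups are apart in every gene except REL, whose shCtrl libraries lie on either side of the shFOXK2 libraries, and MIR3142HG drops from 26.6 and 20.5 CPM to 0 and 0.0549 CPM.

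RELA, on chromosome 11 (65653599-65663090, minus strand, hg38), encodes p65, the transactivating partner of the most common NF-κB dimer. It was measured at 3677 and 2907 counts in shCtrl and at 1444 and 1181 counts in shFOXK2, which is 165 and 181 CPM against 102 and 64.9 CPM. The shFOXK2 libraries differed from each other by more than the shCtrl libraries did, but both were below them. The group means were 173 ± 11.5 and 83.2 ± 25.9 CPM (SD of 2 libraries), and the fitted log2 fold change was -1.06 (SE 0.26).

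NFKB1, on chromosome 4 (102501330-102617302, plus strand), encodes the precursor of p50, the usual partner of p65. It stood at 106 and 115 CPM in shCtrl and at 53.1 and 47.2 CPM in shFOXK2. Replicates were close together in both groups, and the difference was many times their spread. The log2 fold change was -1.14 (SE 0.24), near that of RELA.

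The alternative pathway uses p52, made from the NFKB2 precursor, with RELB, and both had lower fold changes than RELA and NFKB1, a difference between genes that was not tested. NFKB2, on chromosome 10 (102394110-102402524, plus strand), was at 105 and 115 CPM in shCtrl and at 38.5 and 25.2 CPM in shFOXK2, a log2 fold change of -1.78 (SE 0.27). RELB, on chromosome 19 (45001461-45038192, plus strand), was at 51.2 and 57.8 CPM in shCtrl and at 15.7 and 8.68 CPM in shFOXK2, a log2 fold change of -2.17 (SE 0.31). For both genes shFOXK2 replicate 2 was the lowest of the 4 libraries.

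REL, on chromosome 2 (60881491-60931612, plus strand), encodes c-Rel, the subunit best known from lymphocytes. It was at 15.9 and 4.17 CPM in shCtrl and at 9.42 and 12.3 CPM in shFOXK2. The shCtrl libraries thus enclosed the shFOXK2 libraries, and they differed from each other 3.80-fold. The log2 fold change was 0.10 (SE 0.46), and it ran from 1.33 without shCtrl replicate 1 to -0.55 without shCtrl replicate 2, so no direction can be given. REL is among the A-rich transcripts (31.5% A), and genes with 30% to 35% A had a median ratio of shCtrl replicate 1 over replicate 2 of 1.40, against 0.849 for genes under 22% A. With a smooth offset for A content the log2 fold change of REL was -0.49. The group difference also went with A content over the tested genes. The median log2 fold change was -0.30 under 22% A, 0.68 at 30% to 35% A and 2.30 from 35% A upward. Fold changes of single genes, and the calls made from them, carry no correction for this unless the offset is named.

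Levels of different genes were compared per length, as TPM (counts per kilobase of the canonical transcript, scaled to a common total). In shCtrl, RELA was the highest subunit at 139 ± 7.89 TPM (SD, n = 2), followed by NFKB2 at 73.3 ± 4.25 TPM, NFKB1 at 54.9 ± 3.64 TPM and RELB at 48.6 ± 1.86 TPM. REL was far below them at 1.92 ± 1.73 TPM. Neighbouring means lay further apart than the sum of their SDs at every step of that order. In shFOXK2 RELA led at 64.0 ± 18.7 TPM, NFKB1 followed at 24.0 ± 1.48 TPM, NFKB2 was at 20.5 ± 5.65 TPM, RELB at 10.4 ± 4.04 TPM and REL at 1.90 ± 0.389 TPM. There NFKB1 and NFKB2 did not differ beyond their spread. When all annotated exons of a gene were used for its length, NFKB1 (23.3 TPM in shCtrl) fell below RELB (60.2 TPM), so the place of NFKB1 depends on which transcript is counted.

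As a share of the summed TPM of the 5 subunits, RELA went from 43.5% and 43.8% in shCtrl to 54.5% and 50.8% in shFOXK2. RELB went from 15.1% and 15.6% to 9.38% and 7.58%. NFKB2 went from 23.1% and 23.2% to 17.3% and 16.5%. The share of the alternative-pathway subunits was thus lower in both shFOXK2 libraries, while that of NFKB1 (17.4% and 17.2% against 17.7% and 23.0%) was higher by less than the gap between the shFOXK2 libraries. REL held 0.950% and 0.229% of the sum in shCtrl and 1.15% and 2.17% in shFOXK2.

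NFKBIA, on chromosome 14 (35401079-35404749, minus strand), encodes IκBα, which binds NF-κB dimers and is itself resynthesised when NF-κB is active. It was the most abundant of the 10 genes in shCtrl, at 415 ± 5.52 TPM (SD, n = 2). Its counts were 6623 and 5570 in shCtrl and 832 and 741 in shFOXK2, which is 297 and 347 CPM against 58.5 and 40.7 CPM. No library of one group came near the other, and the log2 fold change was -2.70 (SE 0.27), to 15.4% of the control mean. In shFOXK2 its level of 61.7 ± 14.4 TPM was within the spread of that of RELA.

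TNFAIP3, on chromosome 6 (137867214-137883314, plus strand), encodes A20, a ubiquitin-editing enzyme that shuts off signalling upstream of the IκB kinases. It showed the largest fold change of the 9 protein-coding genes. Counts were 3290 and 2091 in shCtrl and 222 and 69 in shFOXK2, which is 147 and 130 CPM against 15.6 and 3.79 CPM. The shFOXK2 libraries differed 4.12-fold from each other but both lay far below shCtrl. The log2 fold change was -3.85 (SE 0.48), to 6.98% of the control mean. It came to -5.19 when shFOXK2 replicate 1 was left out and to -3.19 when shFOXK2 replicate 2 was.

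NFKBIZ, on chromosome 3 (101827991-101861022, plus strand), encodes IκBζ, a nuclear IκB protein that acts as a cofactor at some NF-κB target genes. It was at 121 and 96.1 CPM in shCtrl and at 18.6 and 26.4 CPM in shFOXK2, with a log2 fold change of -2.26 (SE 0.28). The groups were well apart. Its span overlaps that of NXPE3 on the same strand (1094 and 699 counts in the shCtrl libraries, 231 and 461 in the others), so that reads in shared exons could have been left uncounted for both.

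BIRC3, on chromosome 11 (102317484-102339403, plus strand), encodes cIAP2, a ubiquitin ligase of the TNF receptor complex that also restrains the alternative pathway. It was at 203 and 72.8 CPM in shCtrl and at 26.6 and 24.0 CPM in shFOXK2. The shFOXK2 libraries were alike, while the shCtrl libraries differed 2.79-fold. The log2 fold change was -2.45 (SE 0.39), -1.57 without shCtrl replicate 1 and -3.01 without shCtrl replicate 2. BIRC3 has 32.9% A, the highest share of the 10 genes, and with the offset for A content its log2 fold change was -3.48. The other 8 genes with non-overlapping groups remained lower under that offset as well, from -0.72 for RELA to -9.07 for MIR3142HG.

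**Figure D2:**
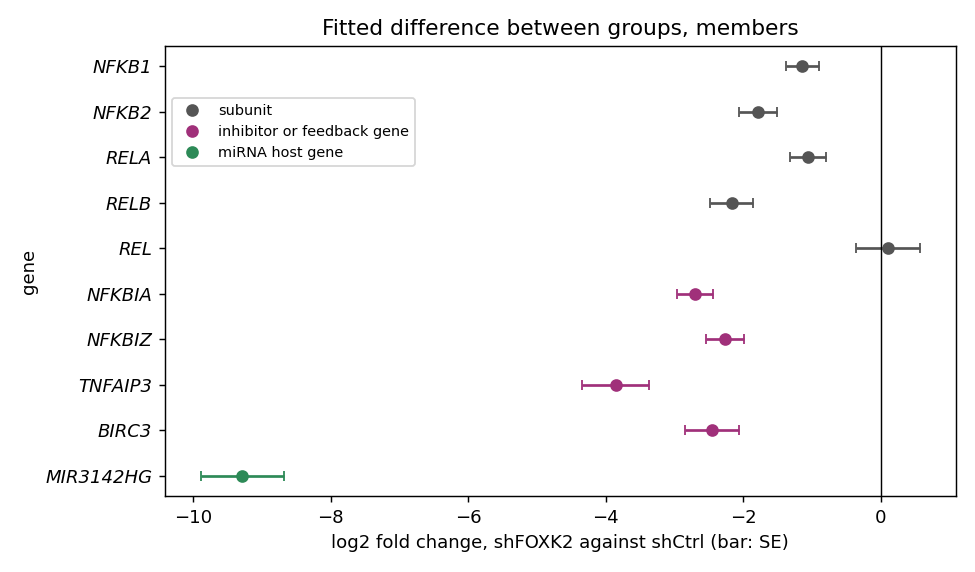
Log2 fold change of each gene, shFOXK2 against shCtrl, with its standard error as a bar (subunits grey, inhibitor and feedback genes purple, miRNA host green). The 4 inhibitor and feedback genes lie between -3.85 and -2.26, left of every subunit in this fit. RELB (-2.17) and NFKBIZ (-2.26) are within their standard errors of each other, and their order changed when some libraries were left out. The value of MIR3142HG depends on the prior count, because its shFOXK2 libraries held 0 and 1 counts.

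Each gene was also set against RELA in the same library, which removes the library's depth. NFKBIA was at 1.80 and 1.92 times the CPM of RELA in shCtrl and at 0.576 and 0.627 times in shFOXK2. TNFAIP3 was at 0.895 and 0.719 times in shCtrl and at 0.154 and 0.0584 times in shFOXK2. NFKBIZ was at 0.732 and 0.530 times in shCtrl and at 0.184 and 0.407 times in shFOXK2. The groups did not overlap in any of these genes, but in NFKBIZ the nearest libraries were closer than the replicates of either group. BIRC3, at 1.23 and 0.402 times in shCtrl and at 0.262 and 0.369 times in shFOXK2, was separated by far less than the gap between its shCtrl libraries.

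The ratio of NFKB1 to RELA showed no such shift, at 0.642 and 0.634 in shCtrl and 0.523 and 0.728 in shFOXK2, so that the difference was within the spread of the shFOXK2 libraries. NFKB2 went from 0.634 and 0.633 to 0.380 and 0.389 times RELA, and RELB from 0.311 and 0.319 to 0.154 and 0.134 times. For both the replicates were nearly equal and the groups were far apart. Over the whole set, the summed CPM of the 4 inhibitor and feedback genes was 1.74 and 1.37 times that of the 5 subunits in shCtrl and 0.547 and 0.599 times in shFOXK2, a log2 difference of -1.43. These ratios come from the contrast on which the genes were chosen and carry no test.

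**Figure D3:**
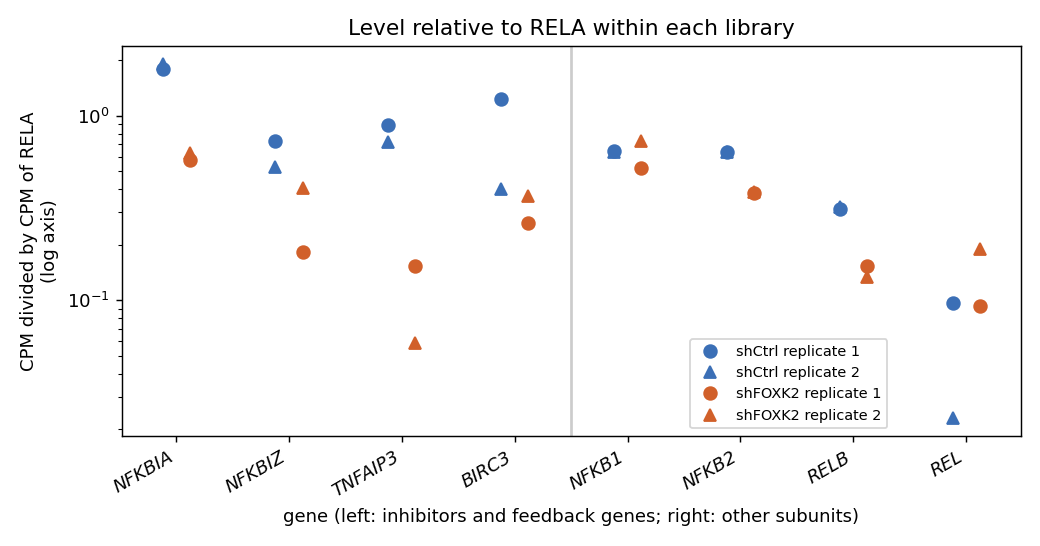
CPM of each gene divided by the CPM of RELA in the same library (log axis), with shCtrl in blue, shFOXK2 in orange, circles for replicate 1 and triangles for replicate 2. NFKBIA moves from 1.80 and 1.92 to 0.576 and 0.627, the ratio of NFKB1 overlaps between groups, and the BIRC3 groups are separated by less than the gap between the shCtrl libraries.

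MIR3142HG, a long noncoding RNA gene of 2 exons on chromosome 5 (160438594-160487426, plus strand), contains the hairpins of miR-146a and miR-3142. Its counts were 594 and 329 in shCtrl, 0 in shFOXK2 replicate 1 and 1 in shFOXK2 replicate 2, or 26.6 and 20.5 CPM against 0 and 0.0549 CPM. Both shFOXK2 libraries were under the floor of 3 counts. Scaled for depth, the summed shCtrl counts were 780 times the single shFOXK2 count, with an exact 95% counting interval of 140 to 30860. The fitted log2 fold change of -9.29 depends on the prior count and is no bound.

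Of 10 protein-coding genes within 500 kb of MIR3142HG, 7 were tested. Only SLU7, a splicing factor gene 16.9 kb away, passed the threshold, where 48.4% of all tested genes did. SLU7 rose (log2 fold change 1.50, SE 0.31, adjusted p = 0.00141 in edgeR). It has 32.4% A, and its shCtrl libraries differed 1.68-fold. PTTG1, the nearest, 9.86 kb away, had a log2 fold change of 0.40 (adjusted p = 0.174 in edgeR). SLU7 and PTTG1 were named after their values were seen. Among 53 host genes whose symbol has the form MIR...HG, 20 were tested, with a median log2 fold change of 0.92. Past the threshold 4 were lower and 10 higher, where 22.7% of all tested genes were lower and 25.7% higher. Some of the higher ones had 0 counts in both shCtrl libraries and so passed the filter only through shFOXK2. The other lower ones were MIR34AHG (90 and 51 counts against 1 and 3), MIR31HG (log2 fold change -1.71) and MIR22HG (log2 fold change -1.04). MIR155HG, the host gene of miR-155 and itself a known NF-κB target, was higher instead (log2 fold change 1.66, SE 0.36, adjusted p = 0.00224 in edgeR). Its counts were 42 and 23 in shCtrl and 76 and 95 in shFOXK2, and it has 30.9% A. These 4 host genes too were named after their values were seen.

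The rest of the pathway was read from 5 lists assembled from general knowledge, but with earlier results of these data known. Their counts are therefore a description and not independent evidence. Each is set beside the 22.7% of all tested genes that fell and the 25.7% that rose. The adjusted p-values that follow are from edgeR's quasi-likelihood test with Benjamini-Hochberg adjustment over all genes tested. Of 24 IκB kinase and upstream genes, 6 fell and 1 rose, with a median log2 fold change of -0.36. The fall count was 3 without shFOXK2 replicate 2, and the rise count was 3 without shCtrl replicate 1, 0 without shFOXK2 replicate 1 and 2 without shFOXK2 replicate 2. IKBKB, the kinase that phosphorylates IκBα, had 83.0 ± 2.18 CPM in shCtrl and 76.2 ± 5.50 CPM in shFOXK2 (log2 fold change -0.12, SE 0.24, adjusted p = 0.694). CHUK, the other kinase (0.72, adjusted p = 0.0667), and MAP3K7, the kinase TAK1 above them (0.71, adjusted p = 0.0575), did not pass the test. IKBKG, the regulatory subunit NEMO, fell (-1.09, adjusted p = 0.0275), as did RNF31, the catalytic part of the linear ubiquitin ligase (-1.11, adjusted p = 0.00654). Of the receptors, TLR2 (-2.60, adjusted p = 0.000246) and IL1R1 (-1.42, adjusted p = 0.00583) fell.

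The alternative pathway was mixed. Of 7 genes 3 fell and 2 rose, with a median of -0.10, and 1 rose without shCtrl replicate 1 or without shFOXK2 replicate 1. MAP3K14, the kinase NIK that triggers processing of p100, had a log2 fold change of 0.38 (adjusted p = 0.224). TRAF3, which holds NIK at a low level, fell (-1.34, adjusted p = 0.000574), and so did the receptor CD40 (-1.02, adjusted p = 0.00926). The receptor TNFRSF12A (0.72, adjusted p = 0.0317) and the cytokine TNFSF13B (2.03, adjusted p = 0.00172) rose. TNFSF13B has 33.1% A, and its counts were 24 and 21 in shCtrl and 46 and 117 in shFOXK2.

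Of 20 other IκB proteins and negative regulators, 8 fell and 2 rose, with a median of -0.28. The rise count was 1 without shCtrl replicate 2 or without shFOXK2 replicate 2. The remaining IκB proteins went apart. NFKBIB, encoding IκBβ, rose from 661 and 609 counts to 1080 and 1333 (1.14, SE 0.25, adjusted p = 0.00243), and NFKBIE, encoding IκBε, fell from 792 and 768 counts to 273 and 232 (-1.39, adjusted p = 0.00183). BCL3, a nuclear IκB protein, fell (-1.32, adjusted p = 0.00096). TNIP1, an A20-binding protein, fell from 16943 and 14388 counts to 1139 and 1594 (-3.30, SE 0.25, adjusted p = 1.27e-06). ZC3H12A, an RNase that degrades inflammatory transcripts, fell from 3209 and 2539 counts to 132 in each library (-4.19, SE 0.28, adjusted p = 4.84e-07). CYLD, a deubiquitinase (-1.54, adjusted p = 0.00137), and IRAK3, an inactive IRAK kinase (220 and 57 counts against 3 and 11, adjusted p = 0.00016), fell too.

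The list that moved furthest was that of transcriptional targets of NF-κB. Of 37 genes 34 were tested, of which 29 fell and 0 rose past the threshold (also 0 at an unadjusted p under 0.05 and 0 in DESeq2), with a median log2 fold change of -4.72. MIR155HG, the NF-κB target described above that rose, is not on this list, so the 0 holds for the listed genes only. Several passed the filter on low counts only through the shCtrl libraries, where they are high. The median of -4.72 includes those genes, so its size rests in part on them. With at least 10 counts required in every library, which tests fewer of the targets, 15 fell and 0 rose. Of all 13625 genes tested under that filter, 2939 fell. The 4 genes named by the rule for this list are chemokine genes, although the chemokine gene CCL5 did not pass (124 and 106 counts against 11 and 90, adjusted p = 0.131). CCL2 went from 3115 and 2382 counts to 9 and 16 (-7.54, adjusted p = 6.8e-08), CXCL1 from 3322 and 2543 counts to 19 and 8 (-7.48, adjusted p = 2.19e-07) and CXCL8 from 2984 and 1263 counts to 20 and 4 (-7.10, adjusted p = 1.47e-06). CXCL5 summed to 905 counts in shCtrl against a single one in shFOXK2, a depth-scaled ratio of 765 (exact 95% counting interval 137 to 30250). Against these, the 5 tested targets that did not pass included the survival genes BCL2L1 (-0.53, adjusted p = 0.0751) and CFLAR (0.05, adjusted p = 0.89), named, like CCL5, after their values were seen.

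**Figure D4:**
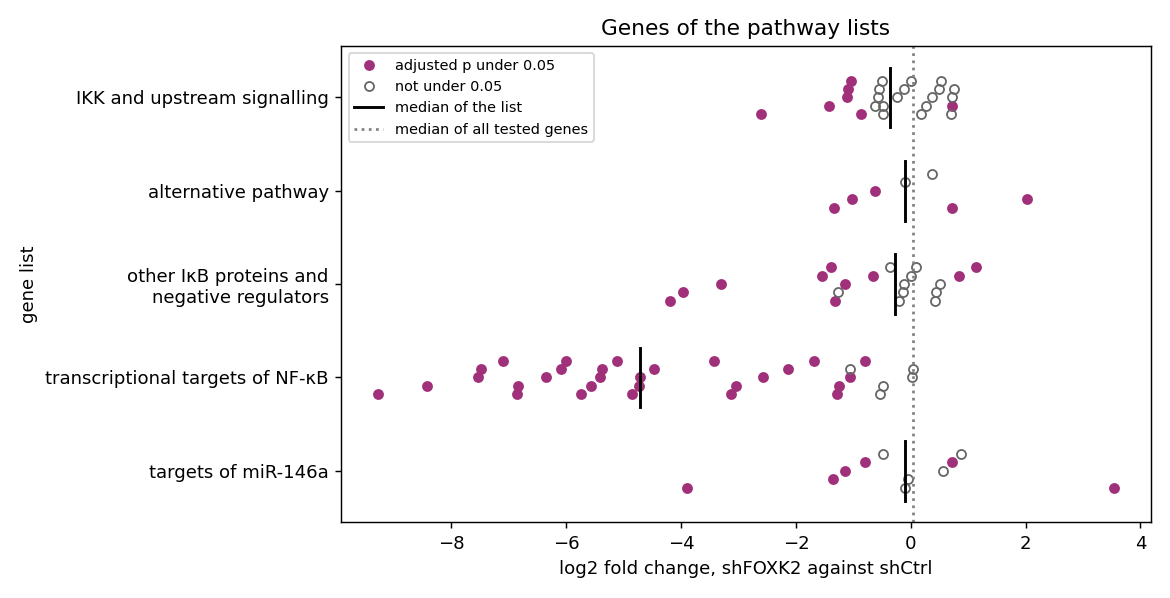
Log2 fold change of every tested gene in 5 lists, shFOXK2 against shCtrl, filled purple where the adjusted p was under 0.05 and open where it was not, with the median of each list as a black bar and that of all tested genes (0.04) as a dotted line. The targets of NF-κB reach furthest left, with a median of -4.72, while the other 4 lists have medians between -0.36 and -0.10. The median of the targets includes genes that passed the filter on low counts only through the shCtrl libraries.

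The targets of miR-146a did not move together. Of 12 listed genes 11 were tested, of which 4 fell and 2 rose, with a median of -0.11. The site that pairs with the seed printed above, AGTTCTC in DNA letters, was found in the 3′UTR of 10 of the 12 and of 11.3% of the 18902 transcripts searched. One site of each of the best-known targets is shown, with the seed match in capitals (hg38, GENCODE v44 canonical transcript, 3′UTR).
IRAK1, chrX:154011805-154011834, minus strand: aaatccggaagtcaaAGTTCTCatggtcag
TRAF6, chr11:36489351-36489380, minus strand: tgctctagaaagttgAGTTCTCattttttt

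IRAK1 held 2 such sites and TRAF6 held 4. IRAK1 rose from 3998 and 3754 counts to 5283 and 5541, which is 207 ± 38.6 CPM against 338 ± 47.4 CPM (log2 fold change 0.71, SE 0.24, adjusted p = 0.0265). TRAF6 had 14.2 ± 2.73 CPM in shCtrl and 10.2 ± 2.52 CPM in shFOXK2 (-0.48, SE 0.31, adjusted p = 0.224). The 2 largest changes in the list had opposite signs. IRAK2, whose 3′UTR held no such site, fell from 2613 and 2089 counts to 131 and 135 (-3.90, adjusted p = 7.89e-07). ROCK1, a kinase of the cytoskeleton with 32.1% A, rose from 809 and 209 counts to 3550 and 5906 (3.54, adjusted p = 2.12e-05). NOTCH2 (-1.36, adjusted p = 0.000924) fell.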

How the data were processed

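Polyadenylated RNA of 4 OVCAR5 libraries was sequenced, and the tables deposited by the authors hold raw counts for each gene symbol, 1 table a library, made with STAR 2.5.2 on hg38 and HTSeq and not normalised; the annotation and the strand setting are not given in the sources used here, so reads of overlapping genes (RELA, TNFAIP3 and BIRC3 each overlap an antisense transcript) may be shared or lost. Groups and replicate numbers came from the sample titles. The 10 genes and all lists were chosen with earlier results of these data known.

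Counts were filtered with filterByExpr, scaled with TMM and fitted over all genes with edgeR 4.0.16 (quasi-likelihood F test, 2-sided) in R 4.3.3, with Benjamini-Hochberg adjustment and a threshold of 0.05. The SE is the absolute log2 fold change over the square root of F. Values are mean ± SD of 2 libraries. TPM used the canonical transcript length of GENCODE v44. Of 56655 symbols, 35754 matched GENCODE directly and 1128 through older RefSeq symbols. Alternatives were library size alone, DESeq2 1.42.0 (size factors and Wald test), no filter, at least 10 counts in every library, an A-content offset (lowess, span 0.2), the replicate block and each library left out. A crossed block and the length over all exons were added after seeing the data.

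Beside the 10 genes and FOXK2, the genes named were 12 fixed pathway genes and, in each list, the 4 largest changes past the threshold whose groups did not overlap and whose log2 CPM averaged 1 or more; others are said to be chosen after their values were seen. The κB search and the base composition used RefSeq and GENCODE. The planned protein comparison is not analysed here. Some results of the lists are not reported here.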

Additional observations from a re-analysis of the deposited data

How the results depend on the processing

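The number of the 10 genes past the threshold and lower was 8 or 9 under 8 alternatives (8 where at least 10 counts were required in every library, which removes MIR3142HG) and 9 with each library left out. The subunit median ran from -1.24 to -0.89, and from -1.41 to -1.08 with each library left out. The inhibitor and feedback median ran from -2.92 to -2.50, lowest under the A-content offset, and from -2.80 to -2.49 with each library left out. Under that offset the median shift of single genes, over those in both fits, was 0.25 on the log2 scale. It also gave FOXK2 a log2 fold change of -0.028, where the other alternatives gave -0.46 to -0.31 and leaving out each library gave -0.55 to -0.23. The subunits stayed above the inhibitor and feedback genes in median in every alternative run. For single genes that order did not always hold. Without shFOXK2 replicate 1, RELB was at -2.65, BIRC3 at -2.53 and NFKBIZ at -2.04. Without shCtrl replicate 1, RELB was at -2.30, NFKBIZ at -2.13 and BIRC3 at -1.57. Of 119 alternative values of single genes, 105 moved by less than the replicate SD, 14 moved further, and none of the called genes changed sign.

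Among the lists, the IκB kinase and upstream genes that rose numbered 4 under the A-content offset, 2 with at least 10 counts and 2 with the crossed block. With each library left out, 3 to 7 of them fell and 0 to 3 rose. Under the same omissions the alternative pathway genes that rose numbered 1 to 2, as did the other IκB proteins and negative regulators, which reached 3 under the A-content offset. The targets of NF-κB that fell numbered 15 with at least 10 counts in every library, which tests fewer of them. All genes past the threshold numbered 6008 to 9207.

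Both groups carry replicates 1 and 2, but no label says what a number shares, and the deviations of same-numbered libraries correlated at -0.11. With the replicate block 7270 genes passed, the 10 genes gave 9 lower, the subunit median was -1.14 and the inhibitor and feedback median was -2.50. With the pairing crossed 8350 genes passed. Depth limits MIR3142HG in shFOXK2 to the statement that it was under 3 counts.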

Other observations

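The κB consensus was also counted over all tested genes with a promoter window, a description chosen after seeing the data. Of 987 genes with a match 32.5% fell and 17.5% rose past the threshold, with a median log2 fold change of -0.25. Of 9806 without one 24.5% fell and 20.7% rose, with a median of -0.05.

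Some cytokine genes under NF-κB, and the enzyme gene PTGS2, were present in the shCtrl libraries and close to absent in those labelled shFOXK2. TNF, the cytokine that activates the pathway, had 58 and 36 counts in shCtrl and 0 in both shFOXK2 libraries, at least 26.5-fold lower with a floor of 3 counts over the group. CSF3 had 120 summed counts in shCtrl and 1 in shFOXK2. IL6 went from 491 and 368 counts to 6 and 0, and PTGS2, the inducible prostaglandin synthase, went from 1750 and 709 counts to 5 and 12. These genes were named after their values were seen and passed the filter on low counts only through the shCtrl libraries, so their values are a description. Other cytokine genes of the list kept more counts in shFOXK2. IL32 had 483 and 65 there, CSF1 had 231 and 129, and CCL5 had 11 and 90.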
